A study of Mus musculus with 9 samples.

Results

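Transcript levels of 44 named genes that mark leukocyte lineages or encode chemokines were read in the submandibular gland (SMG) of adult male mice. The names were matched to the gene symbols of the normalized table, which holds 17562 rows. Of the 44 names, 39 had a row there, and *Ms4a1*, *Cpa3*, *Mcpt4* and *S100a8* had a row among the 48733 of the unfiltered count table alone. The name *Kit1* matched no row in either table. The 43 genes with counts comprised *Ptprc*, 7 T cell genes, 3 natural killer (NK) cell genes, 4 genes of B cells and antigen presentation, 12 macrophage genes, 2 ligands of the macrophage receptor CSF1R, 2 dendritic cell genes, 2 mast cell genes, 2 neutrophil genes and 8 chemokines.

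Total RNA came from SMGs of 4 wildtype (WT) and 5 *Hs3st3a1*-/-;*Hs3st3b1*-/- double knockout (DKO) males on a C57BL/6 background. Each gland gave an unstranded Nextera XT library. Per the study's methods, *Hs3st3a1* was cut in exon 1 by zinc finger nucleases in embryos that carried a LacZ knockout allele of *Hs3st3b1*, so the deletion was present in all cells of the DKO mice, leukocytes included. The sources used here do not give the age in weeks or which of several founder lines the DKO glands came from. The question asked is which leukocyte and chemokine transcripts differed between the DKO and WT glands.

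The SMG is a secretory epithelium with a resident leukocyte population of macrophages, innate lymphocytes of the NK type, scattered T cells and IgA plasma cells. Macrophages depend on the receptor CSF1R, which binds CSF1 and IL34, and they clear debris with the help of complement C1q and scavenger receptors. Chemokines are small secreted proteins that steer leukocytes through tissue. Many chemokines bind heparan sulfate, the polysaccharide that the HS3ST3 enzymes 3-O-sulfate.

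The libraries held 20653492 to 37870519 counts in WT (median 22301326). DKO libraries held 17053747 to 34683690 (median 26682224). *Hs3st3a1* had 7, 3, 14 and 9 counts in WT 1 to 4 and 0 counts in each DKO library, and *Hs3st3b1* measured 2.99 to 5.37 CPM (counts scaled to the TMM-normalized library size) in WT against 0.508 to 1.85 CPM in DKO. Markers of the labelled tissue were present, and 7 SMG duct genes summed to between 28404 and 65631 CPM in WT and between 4403 and 22341 CPM in DKO. Lymph nodes lie next to this gland, and 6 lymph node genes summed to 0.382 to 0.751 CPM in WT and 0.435 to 0.909 CPM in DKO, so they were near 0 in all 9 libraries. DKO 1 stood apart in parotid gland genes. *Bpifa2* measured 7431 CPM in DKO 1, 43.3 to 79.1 CPM in the other DKO libraries and 4.42 to 26.5 CPM in WT. Every DKO library thus lay above every WT library for this gene. *Amy1* measured 638 CPM in DKO 1 and 7.1 to 25.5 CPM in the other 8 libraries. The parotid genes *Prb1* and *Prpmp5* were also highest in DKO 1, with 22 and 21 counts, and had at most 6 and 2 counts in any other library. In whole tissue, fewer cells of a type and less RNA per cell cannot be told apart.

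Macrophage genes and *Cd74* made up most of the leukocyte signal. T cell, other B cell, dendritic cell, mast cell and neutrophil genes were sparse. On the scale of CPM per kb of annotated exon, *Cd74*, the invariant chain of MHC class II carried by B cells, dendritic cells and macrophages, had the highest level of all members (mean 154.0 in WT and 124.0 in DKO). Among macrophage genes *C1qb* reached a mean of 43.9 CPM per kb in WT, followed by *Cd14* at 17.9 and *C1qa* at 15.7. The monocyte and macrophage receptor gene *Csf1r* measured 3.45 CPM per kb in WT, *Adgre1* (F4/80) 3.34 and *Cx3cr1* (the fractalkine receptor) 1.91. Of the NK cell genes, *Nkg7* reached 3.77 CPM per kb in WT, *Gzma* 0.878 and *Klrb1c* 0.25. *Itgam*, which encodes CD11b, had the lowest mean per kb of the 12 macrophage genes, 0.0710 in WT and 0.0918 in DKO. The exon length counts every annotated exon of a gene, so the per kb level is low for a gene with long alternative transcripts such as *Ptprc* (18.3 kb, 0.210 CPM per kb in WT).

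**Figure D1:**
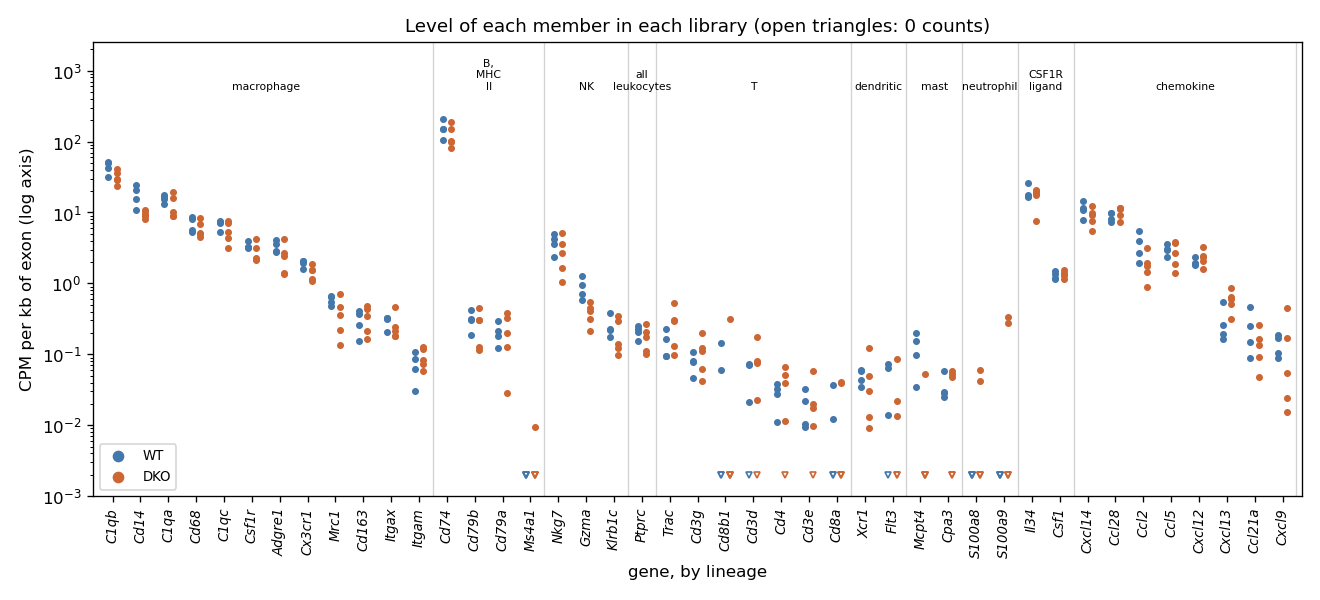
Level of each of the 43 genes in each library, as CPM per kb of exon on a log axis, with WT in blue, DKO in orange and libraries with 0 counts as open triangles. In every library 8 macrophage genes from *C1qb* to *Cx3cr1* lie above 1 CPM per kb. So do *Cd74*, *Nkg7*, *Il34*, *Csf1*, *Ccl28*, *Cxcl14*, *Cxcl12* and *Ccl5*. The T cell, dendritic, mast cell and neutrophil genes lie below 1 CPM per kb, while *Itgam* and *Itgax* are in the range of the T cell genes. The 7 T cell genes sum to no more than 2.58 CPM in any library.

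Of the 43 genes, 27 passed the filter on low counts and were tested: *Ptprc*, all 12 macrophage genes, all 3 NK genes, *Cd74*, *Cd79b*, both CSF1R ligands and 7 of 8 chemokines. None passed an adjusted p of 0.05 in edgeR's quasi-likelihood test, beside 0.629% of all 13842 genes tested (87 genes: 64 or 0.462% lower and 23 or 0.166% higher in DKO). At an unadjusted p under 0.05, 5 members were lower in DKO (*Cd14*, *Gzma*, *Ccl2*, *C1qb* and *Cx3cr1*) and 1 was higher (*Cxcl13*). Over all genes these shares were 7.60% lower and 6.89% higher. DESeq2's Wald test called 1 of the 27 members, *Cd14*, beside 4.35% of 14128 genes (2.60% lower in DKO), and limma-voom called 0, with 5 members at an unadjusted p under 0.05. The fold changes leaned down, since 20 of the 27 were below 0 (47.5% of all genes), and their median log2 fold change was -0.29 beside 0.01 for all genes. The counts rested on single libraries. Without DKO 4, 11 members had an unadjusted p under 0.05 and 441 genes were called, and without WT 1, WT 3 or WT 4, 3 members did and 0 genes were called. Without DKO 1, the library highest in parotid genes, 5 members had an unadjusted p under 0.05 and the member median was -0.43. Without WT 2, 306 genes were called, and without DKO 1, DKO 2, DKO 3 or DKO 5 between 0 and 2.

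**Figure D2:**
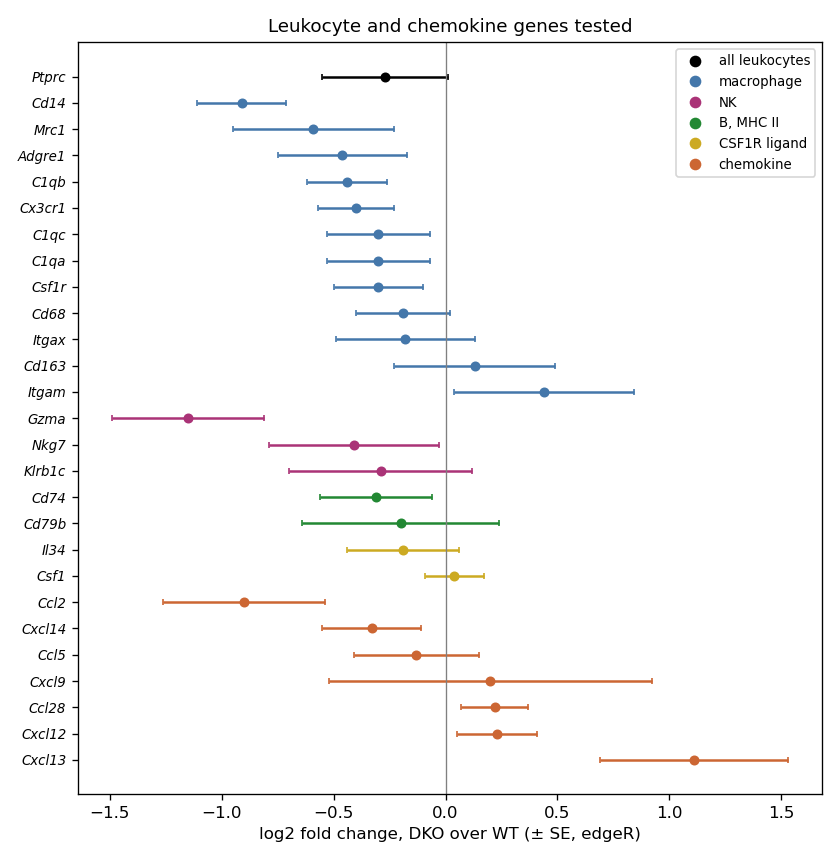
The log2 fold change of DKO over WT for the 27 genes tested, grouped and coloured by lineage, with bars of 1 standard error from edgeR. Most macrophage and all 3 NK genes lie below 0, *Cd14*, *Gzma* and *Ccl2* lie at -0.91, -1.15 and -0.90, and *Cxcl13* lies at 1.11.

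*Ptprc*, which encodes the phosphatase CD45 found on all leukocytes, measured 4.60, 2.83, 4.11 and 3.82 CPM in WT 1 to 4 and 3.84, 2.06, 1.83, 4.86 and 3.26 CPM in DKO 1 to 5. The groups overlapped, with DKO 4 above every WT library and DKO 2 and DKO 3 below every WT library. The log2 fold change was -0.27 ± 0.28 (SE, adjusted p = 0.731, edgeR).

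Among the 12 macrophage genes, 10 had a log2 fold change below 0 and their median was -0.30. The summed CPM of the 12 genes was 193, 124, 173 and 163 in WT 1 to 4. In DKO 1 to 5 the sum was 145, 95.8, 99.3, 158 and 99.2. DKO 2, DKO 3 and DKO 5 lay below all 4 WT libraries, and DKO 1 and DKO 4 lay within the WT range.

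*Cd14*, the coreceptor for bacterial lipopolysaccharide on monocytes and macrophages, had the smallest p of all members. Its values were 42.8, 18.8, 36 and 26.6 CPM in WT 1 to 4 and 18.1, 13.9, 16.3, 18.8 and 15.6 CPM in DKO 1 to 5. The WT libraries spread widely while the DKO libraries were close together, and WT 2 and DKO 4 were level at 18.8 CPM. WT had a mean of 31.0 ± 10.5 CPM (SD, n = 4). DKO had a mean of 16.6 ± 1.96 CPM (SD, n = 5), and the fitted log2 fold change was -0.91 ± 0.20 (SE). The edgeR adjusted p was 0.0583, with a range of 0.00253 to 0.221 over the alternatives, and 4 of 5 DKO libraries lay below all WT libraries. The lowest of these, 0.00253, came from DESeq2, and edgeR gave 0.0162 without WT 2 and 0.0450 without DKO 4. An exact two-sided permutation test of the 9 values gave p = 0.0159, or 0.284 after adjustment over all genes. As counts per count of *Csf1r*, *Cd14* measured 0.990 to 2.25 in WT and 0.771 to 1.32 in DKO, so on this scale the groups overlapped.

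The 3 chains of complement C1q, which starts the classical complement pathway and is made in tissues mainly by macrophages, lie side by side on chromosome 4 of GRCm38. *C1qb* spans chr4:136880129-136886187, *C1qc* spans chr4:136889804-136893065 and *C1qa* spans chr4:136895917-136898803, all on the minus strand. *C1qb* measured 56.2, 34.6, 45.6 and 54.7 CPM in WT 1 to 4 and 45.1, 26, 32.6, 39.9 and 31.7 CPM in DKO 1 to 5. DKO 2, DKO 3 and DKO 5 were below the lowest WT library, and DKO 1 and DKO 4 were inside the WT range. Its log2 fold change was -0.44 ± 0.18 (SE, adjusted p = 0.272, edgeR). *C1qa* ranged from 13.9 to 18.4 CPM in WT and from 9.26 to 20.3 CPM in DKO, and *C1qc* from 10.2 to 14.5 CPM and from 6.13 to 14.4 CPM. Both had a log2 fold change of -0.30 ± 0.23 (SE). The counts of *C1qc* per count of *C1qb* ran from 0.257 to 0.295 in WT and from 0.235 to 0.339 in DKO. Those of *C1qa* per count of *C1qb* spread more, from 0.314 to 0.402 in WT and from 0.284 to 0.508 in DKO.

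The following 4 promoter windows are shown, for *C1qb*, *Gzma*, *Cxcl13* and *Ccl28*, as members of the macrophage, NK cell and chemokine groups described here. The first 3 had an unadjusted p under 0.05, and *Ccl28* had the highest CPM of the member chemokines. Each window is the 250 bases before the start site in RefSeq on GRCm38.p6, written 5′ to 3′ on the strand of the gene. The coordinates are chr4:136886201-136886450 (minus strand) for *C1qb*, chr13:113100982-113101231 (minus strand) for *Gzma*, chr5:95956689-95956938 (plus strand) for *Cxcl13* and chr13:119623569-119623818 (plus strand) for *Ccl28*. Capitals mark the letters AGGAAGT or their reverse complement ACTTCCT, a form of the element bound by ETS family factors, among them PU.1, which macrophages require.
C1qb: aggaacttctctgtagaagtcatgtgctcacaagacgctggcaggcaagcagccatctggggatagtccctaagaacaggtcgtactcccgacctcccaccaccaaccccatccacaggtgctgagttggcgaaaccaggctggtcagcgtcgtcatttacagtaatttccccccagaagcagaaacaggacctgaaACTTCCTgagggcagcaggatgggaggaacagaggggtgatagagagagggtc
Gzma: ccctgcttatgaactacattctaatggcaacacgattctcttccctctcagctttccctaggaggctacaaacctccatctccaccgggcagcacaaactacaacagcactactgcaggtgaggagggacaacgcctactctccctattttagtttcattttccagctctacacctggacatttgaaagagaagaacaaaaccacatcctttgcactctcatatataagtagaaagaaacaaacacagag
Cxcl13: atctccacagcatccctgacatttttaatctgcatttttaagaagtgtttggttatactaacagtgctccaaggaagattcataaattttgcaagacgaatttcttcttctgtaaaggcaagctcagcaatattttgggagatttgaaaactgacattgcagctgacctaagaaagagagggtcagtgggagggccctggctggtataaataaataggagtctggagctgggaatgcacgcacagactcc
Ccl28: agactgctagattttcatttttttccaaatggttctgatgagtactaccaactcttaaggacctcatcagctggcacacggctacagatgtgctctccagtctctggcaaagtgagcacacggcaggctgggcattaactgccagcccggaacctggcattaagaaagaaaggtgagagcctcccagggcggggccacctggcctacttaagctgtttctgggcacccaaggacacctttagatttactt

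Both strands were searched for these letters, chosen after the windows had been read. Of 30 members with an entry, 8 held the letters (*C1qb*, *C1qc*, *Cd3d*, *Cd3e*, *Cd79a*, *Mrc1*, *Ptprc* and *S100a8*), or 26.7%, beside 8.80% of 27025 genes with an entry. In *C1qb* the match begins 53 bases before the start site, and the windows of *Gzma*, *Cxcl13* and *Ccl28* have no match. A match is a string of letters and not a measured binding site. The 13 members without an entry were *Cd4*, *Cd8b1*, *Trac*, *Cd79b*, *Ms4a1*, *Cd74*, *Adgre1*, *Csf1r*, *C1qa*, *Cd14*, *Il34*, *Ccl2* and *Ccl5*.

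The macrophage surface receptor genes *Csf1r* and *Adgre1* ranked the DKO libraries in the same order, with DKO 4 highest and DKO 3 lowest. Their orders of the WT libraries differed. *Csf1r* measured 19.1, 19.0, 23.0 and 18.5 CPM in WT 1 to 4 and 18.2, 13.2, 12.4, 24.4 and 12.8 CPM in DKO 1 to 5. *Adgre1* measured 13.3, 8.91, 11.8 and 9.23 CPM in WT 1 to 4 and 8.58, 7.94, 4.44, 13.5 and 4.57 CPM in DKO 1 to 5. For both genes 4 of 5 DKO libraries lay below all WT libraries and DKO 4 lay above all of them. The log2 fold changes were -0.30 ± 0.20 for *Csf1r* and -0.46 ± 0.29 for *Adgre1* (SE), with edgeR adjusted p of 0.552 and 0.534.

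*Cx3cr1* measured 9.42, 7.07, 9.32 and 8.67 CPM in WT 1 to 4 and 7.0, 6.87, 4.90, 8.50 and 5.15 CPM in DKO 1 to 5. All but DKO 4 lay below the WT range, though DKO 1 and DKO 2 were close to WT 2. EdgeR gave a log2 fold change of -0.40 ± 0.17 (SE, adjusted p = 0.306, edgeR). The annotated span of *Cx3cr1* overlaps other genes, and without strand their reads cannot be told apart where exons overlap. *Mrc1*, the mannose receptor CD206, measured 4.20, 3.02, 4.07 and 3.43 CPM in WT 1 to 4 and 2.96, 2.26, 1.42, 4.47 and 0.870 CPM in DKO 1 to 5. Again DKO 4 was above all WT libraries and the other 4 were below them, and the log2 fold change was -0.59 ± 0.36 (SE, adjusted p = 0.502, edgeR).

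The other 4 macrophage genes had smaller differences relative to their error. *Cd68*, a lysosomal glycoprotein, had a log2 fold change of -0.19 ± 0.21 and *Itgax*, which encodes CD11c, -0.18 ± 0.31 (SE, -0.53 without DKO 1). *Cd163*, the scavenger receptor for haemoglobin and haptoglobin, measured 0.841 to 2.25 CPM in WT and 0.905 to 2.61 CPM in DKO, with a log2 fold change of 0.13 ± 0.36 (SE) that was 0.00 without DKO 1 and -0.17 when library totals alone were used. That scaling moved the median of all genes to -0.28. *Itgam* had 0.153 to 0.536 CPM in WT and 0.290 to 0.645 CPM in DKO, a log2 fold change of 0.44 ± 0.40 (SE). No adjusted p in this group of genes was under 0.694 in edgeR.

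**Figure D3:**
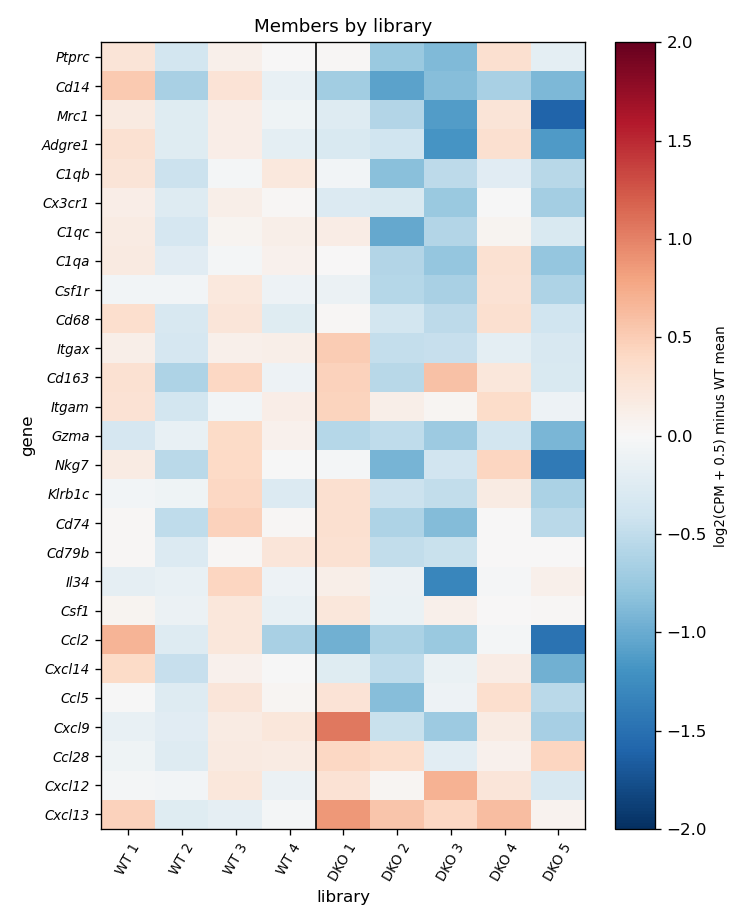
The log2(CPM + 0.5) of each tested gene in each library minus its WT mean, with WT 1 to 4 left of the line and DKO 1 to 5 right of it, red for higher and blue for lower. Most macrophage and NK genes are blue in DKO 2, DKO 3 and DKO 5 and near white or red in DKO 4, whereas *Cxcl13* is red in all DKO libraries but DKO 5.

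The 3 NK cell genes were all below 0 in log2 fold change. *Gzma*, which encodes the granule protease granzyme A, measured 0.580, 0.726, 1.28 and 0.944 CPM in WT 1 to 4 and 0.410, 0.452, 0.321, 0.553 and 0.218 CPM in DKO 1 to 5. All 5 DKO libraries lay below all 4 WT libraries, the closest being DKO 4 and WT 1. It was the single member without overlap among the 27 tested, beside 3.51% of all genes that were lower and 2.49% that were higher in DKO without overlap. The counts behind it were low, from 3 to 58 per library. EdgeR gave a log2 fold change of -1.15 ± 0.34 (SE, adjusted p = 0.131, edgeR), and adjusted p ranged from 0.0685 to 0.407 over the alternatives. The exact two-sided permutation p was 0.00794, the smallest that 4 against 5 libraries allow, and 0.277 after adjustment over all genes.

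*Nkg7*, a cytotoxic granule membrane protein gene, measured 3.79, 2.14, 4.55 and 3.30 CPM in WT 1 to 4 and 3.22, 1.52, 2.43, 4.66 and 0.943 CPM in DKO 1 to 5. *Klrb1c*, which encodes the NK receptor NK1.1, measured 0.670, 0.650, 1.13 and 0.515 CPM in WT 1 to 4 and 1.03, 0.411, 0.367, 0.870 and 0.290 CPM in DKO 1 to 5. Both overlapped between the groups, and DKO 4 was high and DKO 5 lowest for both. The log2 fold changes were -0.41 ± 0.38 for *Nkg7* and -0.29 ± 0.41 for *Klrb1c* (SE, adjusted p = 0.696 and 0.816, edgeR), and that of *Klrb1c* was 0.01 without WT 3. Per count of *Nkg7*, *Gzma* measured 0.153 to 0.339 in WT and 0.119 to 0.297 in DKO.

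The 7 T cell members were near the limit of detection and none was tested. Over 9 libraries *Cd3d*, *Cd3e*, *Cd3g*, *Cd4*, *Cd8a*, *Cd8b1* and *Trac*, which encode chains of the T cell receptor complex and its coreceptors, had from 0 to 22 counts. Their summed CPM was 0.625, 0.535, 0.950 and 0.987 in WT 1 to 4. In DKO 1 to 5 it was 2.58, 0.658, 0.412, 0.870 and 1.02. DKO 1 was highest, and it held all 16 counts of *Cd8b1* found in DKO. Without DKO 1 the DKO sums ran from 0.412 to 1.02 CPM, which overlaps the WT range. Parotid genes were also highest in DKO 1, and the part of this in the T cell counts was not tested.

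B cell genes were as sparse, apart from *Cd74*. *Ms4a1*, which encodes CD20, had 0 counts in 8 libraries and 2 in DKO 1, and *Cd79a* and *Cd79b*, the signalling chains of the B cell receptor, had 1 to 16 and 4 to 22 counts. A count of 0 allows up to 3 counts, which is 0.0663 to 0.134 CPM in the WT libraries (counting error only). *Cd79b*, the one of these that was tested, had a log2 fold change of -0.20 ± 0.44 (SE). *Cd74* measured 255, 176, 345 and 256 CPM in WT 1 to 4 and 315, 163, 137, 253 and 172 CPM in DKO 1 to 5. Its groups overlapped, with DKO 2, DKO 3 and DKO 5 below all WT libraries, and the log2 fold change was -0.31 ± 0.25 (SE, adjusted p = 0.649, edgeR).

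Dendritic cell, mast cell and neutrophil genes gave no comparison. *Flt3*, the growth factor receptor of dendritic cell precursors, had 0 to 18 counts and *Xcr1*, the chemokine receptor of cross-presenting dendritic cells, 1 to 14. Among mast cell protease genes *Cpa3* had at most 3 counts in any library, and *Mcpt4* had 5, 1, 5 and 4 counts in WT 1 to 4, 2 in DKO 1 and 0 in the other DKO libraries. *S100a8* and *S100a9*, which encode the calprotectin subunits of neutrophils, had 0 counts in all WT libraries. *S100a8* had 1 count each in DKO 1 and DKO 2, and *S100a9* had 6 in DKO 1 and 2 in DKO 5. All were removed as low in counts before testing, and no fold is given.

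Neither ligand of CSF1R passed the test. *Csf1* ranged from 6.09 to 8.02 CPM in WT and from 6.17 to 8.03 CPM in DKO, a log2 fold change of 0.04 ± 0.13 (SE, adjusted p = 0.926, edgeR) that was -0.25 with library totals alone and -0.01 without DKO 1. *Il34* measured 32.9, 33.5, 50.5 and 34.7 CPM in WT 1 to 4 and 40.6, 34.2, 14.8, 36.8 and 39.9 CPM in DKO 1 to 5. DKO 3 lay far below the others, and the log2 fold change was -0.19 ± 0.25 (SE, adjusted p = 0.801, edgeR). Per kb of exon *Il34* was the more abundant ligand, with 19.3 CPM per kb against 1.3 for *Csf1* in WT.

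The chemokines did not move as a group. Of 7 tested, 4 had log2 fold changes above 0 and 3 below, with a median of 0.20 (3 above, 4 below and a median of -0.26 without DKO 1). Their summed CPM was 71.1 to 96.8 in WT and 83.0 to 100 in DKO. Most of the sum came from *Ccl28*, *Cxcl14* and *Cxcl12*.

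*Ccl2*, the main attractant of CCR2+ monocytes, measured 6.29, 3.06, 4.46 and 2.19 CPM in WT 1 to 4 and 1.67, 2.22, 2.02, 3.64 and 1.02 CPM in DKO 1 to 5. DKO 1, DKO 3 and DKO 5 were below all WT libraries, DKO 2 was beside WT 4, and DKO 4 was in the middle of the WT range. Its log2 fold change was -0.90 ± 0.36 (SE, adjusted p = 0.262, edgeR), and the exact two-sided permutation p was 0.0873. The related CCR2 ligands *Ccl12* and *Ccl7*, picked after their values were seen, had log2 fold changes of -0.84 ± 0.44 and -1.01 ± 0.48 (SE, adjusted p = 0.421 and 0.371, edgeR). Of the 13 tested chemokine ligands outside the members, 9 were below 0 and 4 above. The 4 above, also picked later, were *Ccl8* (0.45 ± 0.55), *Ccl9* (0.59 ± 0.43), *Ccl11* (0.25 ± 0.31) and *Ccl25* (0.35 ± 0.15, log2 fold change and SE). *Ccl2* overlaps an annotated gene on the other strand, whose reads cannot be told from its own in unstranded libraries.

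*Cxcl13*, the attractant of CXCR5+ B cells, was the one member with an unadjusted p under 0.05 that was higher in DKO. It measured 0.625, 0.191, 0.221 and 0.300 CPM in WT 1 to 4 and 0.996, 0.699, 0.596, 0.751 and 0.363 CPM in DKO 1 to 5. Every DKO library lay above WT 2, WT 3 and WT 4, and WT 1 lay among the DKO values. Its log2 fold change was 1.11 ± 0.42 (SE, adjusted p = 0.238, edgeR) on 5 to 34 counts per library.

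*Ccl28*, a mucosal chemokine that attracts IgA plasma cells through CCR10, measured 39.4, 35.2, 47.7 and 46.9 CPM in WT 1 to 4 and 55.8, 53.8, 36, 44.5 and 56.7 CPM in DKO 1 to 5. DKO 1, DKO 2 and DKO 5 were above all WT libraries and none was below. The log2 fold change of 0.22 ± 0.15 (SE, adjusted p = 0.565, edgeR) became -0.07 with library totals alone. *Cxcl14*, an epithelial chemokine, measured 26.2, 14.5, 21.2 and 20 CPM in WT 1 to 4 and 16.9, 14.0, 18.2, 22.3 and 10 CPM in DKO 1 to 5. These overlapped, with a log2 fold change of -0.33 ± 0.22 (SE, adjusted p = 0.556, edgeR).

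*Cxcl12*, the CXCR4 ligand made by stromal cells, ranged from 14.8 to 19.0 CPM in WT and from 12.9 to 26.6 CPM in DKO, a log2 fold change of 0.23 ± 0.18 (SE) that was -0.07 with library totals alone. *Ccl5*, a chemokine of T and NK cells, ranged from 2.29 to 3.45 CPM and from 1.36 to 3.72 CPM, with a log2 fold change of -0.13 ± 0.28 (SE). *Cxcl9*, an interferon-induced chemokine, had its highest value in DKO 1 at 1.38 CPM and lay between 0.0458 and 0.558 CPM elsewhere. Its log2 fold change of 0.20 ± 0.72 (SE) rested on DKO 1. Without DKO 1, and on the same genes, it was -0.94 ± 0.61 (SE, adjusted p = 0.546, edgeR), and DKO 2, DKO 3 and DKO 5 lay below all WT libraries. It was also below 0 with library totals alone, limma-voom and the replicate block. *Ccl21a* had 1 to 10 counts, was not tested, and shares reads with near-identical copies in the mouse genome.

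**Figure D4:**
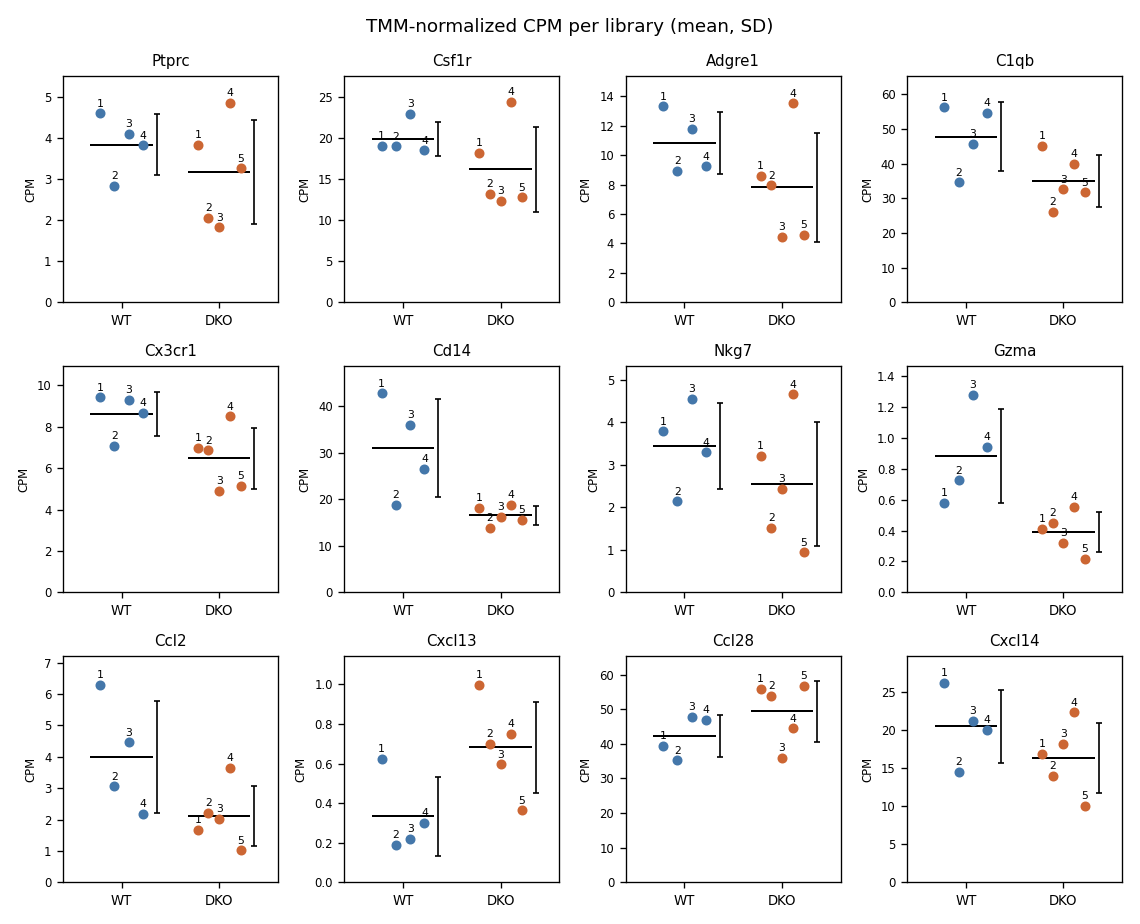
TMM-normalized CPM of 12 members in each library, labelled by replicate number, with the group mean as a line and the SD as a bar to its right (WT n = 4, DKO n = 5). The groups separate for *Gzma*, come level at 18.8 CPM for *Cd14*, and overlap for the other 10 genes.

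Further genes of the same lineages were read from lists of T, NK, B and plasma cell, macrophage, dendritic cell, granulocyte and mast cell markers, chemokines, chemokine receptors, myeloid growth factors and adhesion molecules. Of 156 such genes outside the members, 73 were tested. EdgeR called 0 at an adjusted p of 0.05, and limma-voom also called 0. At an unadjusted p under 0.05 in edgeR, 7 were lower and 2 higher in DKO. Over all genes these shares were 7.60% and 6.89%. Of the 73, 55 (75.3%) had a log2 fold change below 0, beside 47.5% of all genes, and the median was -0.21. Values did not overlap for 2 of them, *Trdc* and *Cxcl17*, both lower in DKO, beside 3.51% of all genes. DESeq2 called 4 of 75, all lower in DKO, beside 4.35% of all genes (2.60% lower). Among the 4 were *Trdc*, *Cxcl16* and *Irf8*.

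*Trdc*, the constant region of the T cell receptor delta chain, was the most abundant gene of the T cell list. With 187 to 891 counts per library, it stood far above the 7 T cell members (0 to 22 counts). Which cells carried it was not tested. It measured 21.6, 23.0, 19.7 and 17 CPM in WT 1 to 4 and 15.9, 9.30, 8.57, 14.3 and 14.4 CPM in DKO 1 to 5. All 5 DKO libraries lay below all 4 WT libraries, and the log2 fold change was -0.70 ± 0.19 (SE, adjusted p = 0.0992, edgeR, and 0.0188, DESeq2). The sum of the other 16 genes of that list overlapped, at 8.67 to 13.5 CPM in WT and 5.91 to 17.1 CPM in DKO. Its second gene, the costimulatory receptor *Cd27*, had a log2 fold change of -0.09 ± 0.28 (SE), with the sign turned by limma-voom (0.17). All 5 tested genes of the NK list were below 0, with a median of -0.60, among them the activating receptor gene *Klrk1* at -0.37 ± 0.37 and perforin (*Prf1*) at -0.21 ± 0.52 (SE). The sum of the 8 NK list genes overlapped between the groups, at 3.25 to 6.45 CPM in WT and 1.81 to 5.63 CPM in DKO.

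In the macrophage list 14 of 15 tested genes had a log2 fold change below 0 (47.5% of all genes), with a median of -0.26. Its most abundant genes, *Lyz2* (lysozyme) and *Ctss* (cathepsin S), had log2 fold changes of -0.23 ± 0.26 and 0.07 ± 0.15 (SE), and that of *Ctss* was -0.21 with library totals alone. *Irf8*, a transcription factor of dendritic cells and monocytes, measured 16.8, 9.14, 19.3 and 14.0 CPM in WT 1 to 4 and 9.52, 6.38, 3.30, 10.6 and 7.83 CPM in DKO 1 to 5. DKO 1 and DKO 4 lay just above WT 2 and the other 3 lay below all WT libraries, with a log2 fold change of -0.98 ± 0.30 (SE, adjusted p = 0.142, edgeR, and 0.0311, DESeq2). *Zbtb46*, a factor of conventional dendritic cells, had a log2 fold change of -0.39 ± 0.30 (SE).

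Among other chemokines, *Cxcl16*, the ligand of CXCR6, measured 30.0, 14.4, 30.4 and 23.0 CPM in WT 1 to 4 and 12.6, 9.91, 9.81, 18.1 and 14.9 CPM in DKO 1 to 5. DKO 4 and DKO 5 lay above WT 2 and the other 3 lay below all WT libraries, and the log2 fold change was -0.91 ± 0.24 (SE, adjusted p = 0.0891, edgeR, and 0.0105, DESeq2). *Cxcl17*, a mucosal chemokine, measured 77.5, 70.5, 63.3 and 69.7 CPM in WT 1 to 4 and 57.3, 47.6, 43.3, 62.8 and 59.4 CPM in DKO 1 to 5. Its groups did not overlap, with DKO 4 and WT 3 the closest, and the log2 fold change was -0.38 ± 0.12 (SE, adjusted p = 0.179, edgeR). The most abundant receptor genes were *Ccrl2*, a chemerin-binding receptor, at 0.43 ± 0.15 (adjusted p = 0.209, edgeR) and *Ccr2*, the receptor of CCL2, at -0.26 ± 0.41 (log2 fold change and SE).

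*Jchain*, which joins IgA and IgM multimers in plasma cells, varied widely within both groups, at 59.5, 67.6, 152.0 and 130.0 CPM in WT 1 to 4 and 175, 10.8, 42.3, 189 and 50.1 CPM in DKO 1 to 5. *Derl3*, which also acts in secretory acinar cells, had a log2 fold change of 0.30 ± 0.19 (SE, -0.04 with library totals alone). *Kit*, the receptor that marks mast cells and also salivary epithelial cells, had 0.16 ± 0.20 (-0.17 with library totals alone), and its ligand *Kitl* -0.38 ± 0.18. The B cell gene *Cd37* had -0.50 ± 0.42, the granulocyte receptor gene *Csf3r* 0.98 ± 0.48, the mast cell chymase *Cma1* -0.21 ± 0.67, the integrin chain *Itgb2* -0.35 ± 0.34 and the selectin ligand *Selplg* -0.29 ± 0.27 (log2 fold change and SE). *Bank1* and *Prg2* did not pass the filter.

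Much of the variation of the 27 tested members lay between libraries of the same genotype. DKO 2, DKO 3 and DKO 5 held the lowest DKO value of 8, 10 and 9 of the 27 members, and DKO 1 and DKO 4 of 0. Over all genes each DKO library held the lowest value of 17.1% to 26.3%. DKO 4 held the highest DKO value of 13 members and DKO 1 of 11. In WT, WT 2 held the lowest value of 20 of the 27 members, beside 26.6% of all genes, and the highest of 0. The acinar gene *Mucl2* was high where many of these genes were low, at 131544, 175309, 112491 and 163731 CPM in WT 1 to 4 and 198959, 223190, 285218, 174468 and 255933 CPM in DKO 1 to 5. DKO 2, DKO 3 and DKO 5 held the highest *Mucl2* values and WT 2 the highest in WT. The 7 SMG duct genes summed to 65631, 28404, 57592 and 43581 CPM in WT 1 to 4. In DKO 1 to 5 they summed to 19603, 11563, 4403, 22341 and 14987 CPM. This duct sum was lowest in WT 2 within WT, and DKO 2, DKO 3 and DKO 5 lay below DKO 1 and DKO 4. The part of these shifts in gland composition in the leukocyte values was not tested. The 5 erythrocyte genes, a measure of blood in the sample, summed to 14.8 to 37.0 CPM in WT and 14.2 to 38.4 CPM in DKO.

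**Figure D5:**
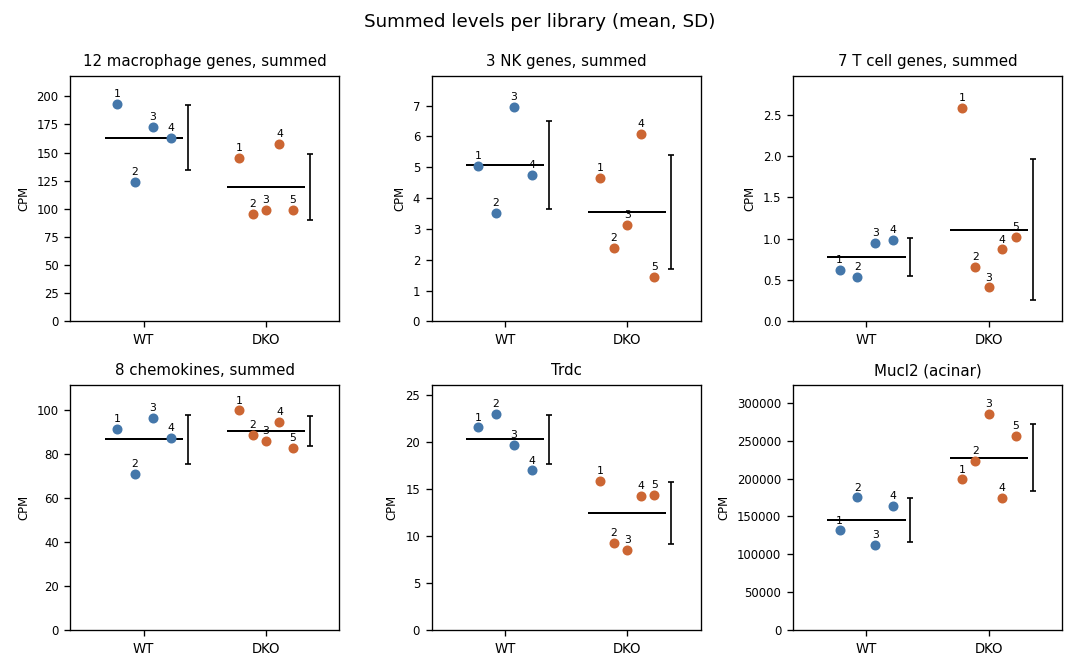
Summed TMM-normalized CPM per library of the 12 macrophage, 3 NK, 7 T cell and 8 chemokine genes, with *Trdc* and the acinar gene *Mucl2*, labelled by replicate number, with the mean as a line and the SD as a bar. The macrophage sums of DKO 2, DKO 3 and DKO 5 lie between 95.8 and 99.3 CPM, below all WT libraries, while DKO 1 stands apart in the T cell sum at 2.58 CPM.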

How the data were processed

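RNA of 4 WT and 5 DKO male SMGs was sequenced on a HiSeq2500 from unstranded Nextera XT libraries. The authors deposited raw read counts per gene (48733 rows, of which 24 are transgene or spike-in rows with 7.48e-05% of the counts), the same counts after a filter (17562 rows), and a table of TMM-normalized signal values in CPM units. All 158058 values of the last table gave back whole counts of the filtered table within a tolerance of 0.01. The submitters' processing notes name STAR 2.5.2a, DESeq2, edgeR, limma and the builds GRCm38, mm10 and GRCh38 without their roles. How reads were assigned to genes that overlap is not given in the sources used here.

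Tests ran on the unfiltered counts with edgeR 4.0.16 (R 4.3.3), using TMM factors, filterByExpr (minimum count 10, minimum total 15), a quasi-likelihood model of genotype alone (legacy setting), and Benjamini-Hochberg adjustment over all 13842 rows. SE is the log2 fold change over the square root of F. CPM values are these TMM-normalized CPM over all 9 libraries. DESeq2 1.42.0, which the study's methods name, and limma 3.58.1 were alternatives, with other scalings, filters, the filtered table, the replicate block and each library left out. Permutation tests used log2(CPM + 0.5). The test script was tried on simulated data. Gene models came from GENCODE M21 (GRCm38) and promoters from RefSeq (GRCm38.p6). The members and lists were chosen with earlier results of these data known. The genes named are all members, the genes past an adjusted p of 0.05 and the 2 most abundant of each other list, the deleted genes, and those said to be picked later. The labels give each library a gland number of its own and say nothing of litters or days. The study describes its comparison as DKO against WT littermates, but which glands shared a litter is not given. The p-values therefore measure the spread between these glands, without litter in the model. Of the genes in the lists, 1 is not reported here by name.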

Additional observations from a re-analysis of the deposited data

Results flagged for a closer look

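The values of 27 members in 2 groups made 54 sets, and in 5 of them a single library lay far from the rest by Dixon's criterion, where chance flags about 1 in 20. In WT, *Csf1r* was high in WT 3 at 23.0 CPM (others 18.5 to 19.1), *Il34* was high in WT 3 at 50.5 CPM (others 32.9 to 34.7) and *Itgax* was low in WT 2 at 0.994 CPM (others 1.52 to 1.56). In DKO, *Il34* was low in DKO 3 at 14.8 CPM (others 34.2 to 40.6) and *Itgax* was high in DKO 1 at 2.20 CPM (others 0.864 to 1.15). Without DKO 3 the log2 fold change of *Il34* was 0.00 (adjusted p = 0.998, edgeR), and without DKO 1 that of *Itgax* was -0.53 (adjusted p = 0.385, edgeR). DKO 1 was also highest in parotid genes, and the part of this in the *Itgax* value was not tested.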

How the results depend on the processing

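Genes called over the whole table numbered 87 with edgeR and TMM, 614 with DESeq2, 148 with limma-voom, 357 with library totals alone, 347 without a filter and 5 with either upper-quartile factors or TMM computed without the 20 most abundant genes, the last chosen after seeing the data. Members called were 0, and 1 (*Cd14*) with DESeq2, with library totals alone and without a filter. The other lists gave 0, then 4 with DESeq2, 2 with library totals alone and 1 without a filter. Leaving out 1 library at a time gave 0 to 441 genes called, 0 to 1 members called, 3 to 11 members with an unadjusted p under 0.05, medians of -0.45 to -0.15 over the tested members and 0 to 2 genes called in the other lists. The member median was below 0 under each of the 20 alternatives run, with library totals alone at -0.53.

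The labels do not say whether libraries of the same replicate number belong together. Within DKO the gland numbers do not rise with the replicate number, so whether a block by replicate number joins related glands is not known. For numbers 1 to 4, deviations from the group means correlated at 0.213, 0.347, 0.102 and 0.0118. WT 1 and WT 2 correlated best with DKO 1 and DKO 2, but WT 3 and WT 4 with DKO 5 (0.119 and 0.0988). These correlations do not settle whether the libraries are paired. A fit with the replicate block called 0 genes and 0 members, with 5 members at an unadjusted p under 0.05 and a median of -0.27.

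Signs turned for small changes. With library totals alone these were *Cd163* (-0.17), *Csf1* (-0.25), *Ccl28* (-0.07), *Cxcl12* (-0.07), *Cxcl9* (-0.03), *Derl3* (-0.04), *Ctss* (-0.21) and *Kit* (-0.17). With limma-voom they were *Cxcl9* (-0.35) and *Cd27* (0.17), and with the replicate block *Cxcl9* (-0.04). Leaving out single libraries turned the sign of *Cma1* (-0.58 to 0.33), *Cd163* (-0.09 to 0.33), *Csf1* (-0.01 to 0.13), *Cd27* (-0.30 to 0.06), *Ctss* (-0.03 to 0.14), *Klrb1c* (-0.59 to 0.01), *Prf1* (-0.57 to 0.10), *Jchain* (-0.56 to 0.16), *Ccr2* (-0.55 to 0.03) and *Ccl5* (-0.28 to 0.04), with the range over the 9 libraries left out in brackets. *Cxcl9* and *Itgam* did not pass the filter without DKO 1 or DKO 4. On the genes of the filter over all libraries, a setting chosen after seeing the data, *Cxcl9* was -0.94, *Csf1* -0.01 and *Ctss* -0.03 without DKO 1, and 1 gene was called in all. Of 1003 gene values under alternatives, 943 kept direction and side of the threshold, 36 turned sign, 13 newly passed an adjusted p of 0.05 and 11, all of *Hs3st3b1*, no longer did.

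Low counts limit the T cell, B cell, mast cell, dendritic cell and neutrophil genes, of which 1 count equals 0.0221 to 0.0725 CPM.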
